A study of Mus musculus with 8 samples.

Results

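The genes described here carry out glutathione, peroxide, and aldehyde detoxification. They were chosen by their symbols: every symbol in the deposited count files that names a glutathione transferase of the alpha, mu, pi, theta, omega, or zeta class, a microsomal glutathione transferase, a glutathione peroxidase, a peroxiredoxin, a superoxide dismutase, or an aldehyde dehydrogenase with a letter in its symbol, plus 13 genes of catalase, thioredoxin, glutathione synthesis, and the NRF2 pathway. This gave 72 of the 18533 gene symbols. *Aldh2* lies outside the name pattern and was placed among the related genes below. The data were RNA-Seq estimated counts per gene for MASMCs, which are cultured smooth muscle cells of the mouse aorta, in 4 WT and 4 *Hint1*-/- samples. All 8 samples, WT included, had been exposed to PDGF-BB, a growth factor that drives smooth muscle cells out of their contractile state, at 20 ng/mL for 24 hours. According to the methods, the mice were males of 4 to 6 weeks, the *Hint1*-/- mice came from another institute, littermates were compared, and the cells were released by collagenase after the adventitia and endothelium had been removed. The allele is not described in the sources used here, the labels do not give the strain, and no source used here says whether the 4 samples of a genotype came from separate mice, so p-values measure only the spread between these samples, which may be technical.

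Cells meet superoxide, hydrogen peroxide, lipid peroxides, and reactive aldehydes as by-products of respiration, oxidases, and membrane lipid oxidation. Superoxide dismutases turn superoxide into hydrogen peroxide, which catalase, peroxiredoxins, and glutathione peroxidases then reduce. The last 2 families draw their electrons from thioredoxin and glutathione, and both of these are recharged by NADPH. Glutathione transferases couple electrophiles to glutathione, and aldehyde dehydrogenases oxidize aldehydes to acids, among them retinaldehyde to retinoic acid. Many of these genes are targets of NRF2, a transcription factor that KEAP1 marks for degradation until oxidants or electrophiles modify KEAP1. NRF2 binds with small MAF proteins to the antioxidant response element, and vascular smooth muscle cells are known to use this system against the peroxide made by their own NADPH oxidases.

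The core of that element, TGACNNNGC, was searched on both strands of RefSeq promoters (build GRCm38.p6). Each promoter ran from 250 bases before to 50 bases after a RefSeq start. Promoters were present for 60 of the 72 genes, 76 in all, and a gene was counted if any of its promoters held the core. It was found for 5 of the 15 matched genes that were lower in *Hint1*-/- MASMCs (33.3%), for 2 of the 8 that were higher (25.0%), and for 5 of the 31 tested and not changed (16.1%), against 1821 of 10767 matched genes over all genes tested (16.9%). A match is a description of these letters and no evidence of binding. The windows below are those of the 4 lower genes whose match lies before the start and of the 2 higher genes with a match. That of *Nfe2l2*, the gene of NRF2 itself, is printed last. Matches in *Aldh9a1*, *Gstm5*, *Gstm7*, and *Sod1*, which like *Nfe2l2* were tested and not changed, are not printed. Each is written on the strand of its gene with the match in capitals, and a match on the opposite strand reads as its reverse complement.
Gclm (chr3:122245407-122245447, + strand): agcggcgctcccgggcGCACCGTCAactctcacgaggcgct
Prdx1 (chr4:116685450-116685490, + strand): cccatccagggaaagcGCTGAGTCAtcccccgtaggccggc
Txnrd1 (chr10:82859098-82859138, + strand): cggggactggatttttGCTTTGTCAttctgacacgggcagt
Gsta3 (chr1:21240448-21240488, + strand): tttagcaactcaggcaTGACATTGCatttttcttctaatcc
Mgst1 (chr6:138140455-138140495, + strand): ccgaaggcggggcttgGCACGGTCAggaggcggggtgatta
Aldh1a2 (chr9:71215661-71215701, + strand): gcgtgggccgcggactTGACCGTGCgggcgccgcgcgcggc
Nfe2l2 (chr2:75704879-75704913, − strand): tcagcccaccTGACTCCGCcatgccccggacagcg
The match in *Prdx1* begins 133 bases before its RefSeq start. By the gene positions of GENCODE M21, the *Txnrd1* and *Mgst1* windows lie inside their genes, which begin at 82833951 and 138140316. The match in the *Srxn1* promoter lies after its start. The *Nqo1* window held no match.

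The 8 libraries were nearly equal in depth, from 20778077 to 20888041 estimated counts. *Hint1* (chr11:54866383-54870501, mm10) was lower in each sample of its own knockout, at 2272, 2336, 2364, and 2301 counts for WT replicates 1 to 4 against 713, 748, 778, and 715 for *Hint1*-/- replicates 1 to 4. This is 32.1% of the WT level in CPM, the unit of counts scaled to a common library size. Counts below are estimated counts in replicates 1 to 4 in the same order, log2 fold changes are of *Hint1*-/- against WT, and adjusted p-values are from edgeR's quasi-likelihood test (two-sided, Benjamini-Hochberg over 13535 genes tested). A gene is called changed, higher, or lower at an adjusted p under 0.05. The study's own limit of a fold change over 1.5 is given as a second, stricter mark.

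Of the 72 genes, 65 had enough counts to be tested and 32 of these changed (49.2%), where 21.5% of all genes tested changed. The changed genes were split into 22 lower in *Hint1*-/- MASMCs (33.8% of those tested, against 10.2% of all genes) and 10 higher (15.4%, against 11.2%). The 7 genes not tested were *Gpx2*, *Gpx5*, *Gsta2*, *Gstm3*, *Gsto2*, *Aldh3b2*, and *Aldh8a1*, none of which passed 13 counts in any sample. The changes were small. Only 5 genes also passed the fold limit, which 2.83% of all genes tested did. *Gsta4*, *Aldh1a3*, *Gsta3*, and *Nqo1* were the 4 lower ones (1.49% of all genes tested were lower past the limit), and *Aldh3a1* was the 1 higher gene (1.34% of all genes tested). WT and *Hint1*-/- samples were fully separate for 34 of the 65 genes, 22 of them lower and 12 higher. Over all genes tested, the smaller share of 23.0% was fully separate (3110 of 13535). The median log2 fold change of the 65 genes was −0.07, and that of all genes tested was 0.00.

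**Figure D1:**
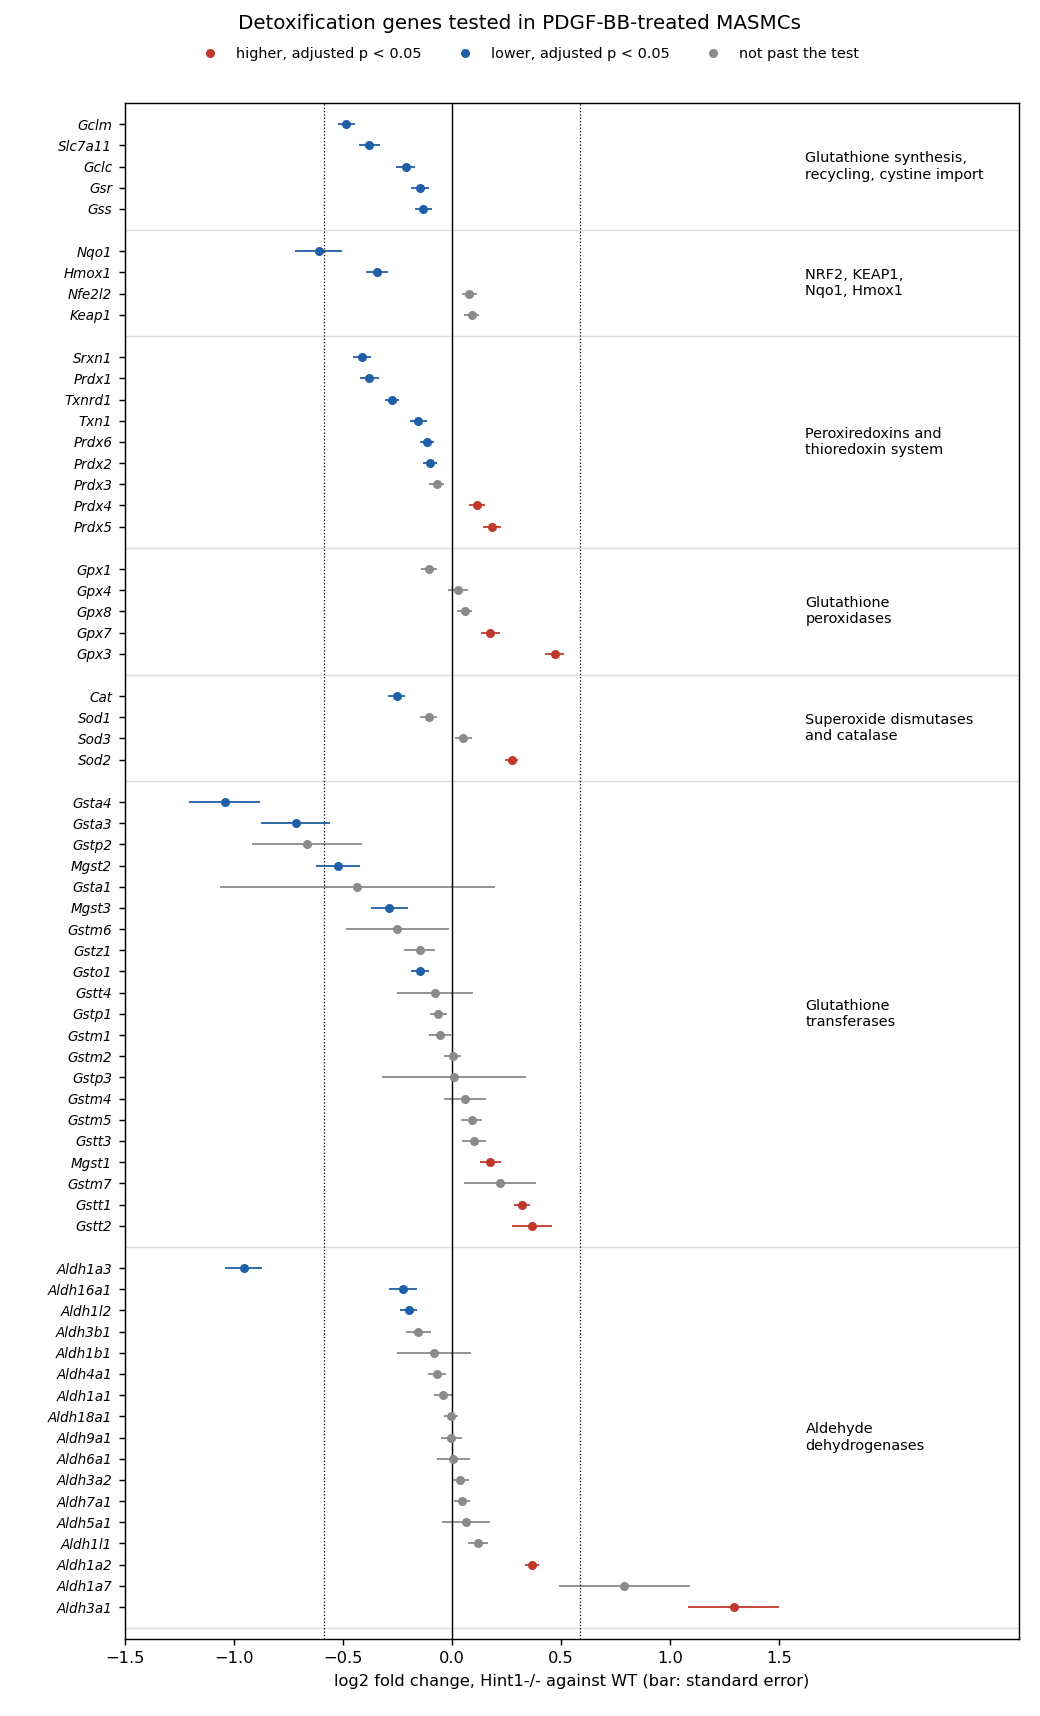
Log2 fold change of *Hint1*-/- against WT for each of the 65 genes tested, grouped by role, with bars for the standard error and dotted lines at a fold change of 1.5. Blue points (22 genes) were lower and red points (10 genes) were higher at an adjusted p under 0.05, and all 5 genes of glutathione synthesis, recycling, and cystine import lie left of 0.

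All 5 genes that make, recycle, or feed the synthesis of glutathione were lower in *Hint1*-/- MASMCs, where 10.2% of all genes tested were. The CPM summed over the 5 was 424 to 475 in WT and 354 to 368 in *Hint1*-/- samples (80.0% of WT). *Gclm*, the modifier subunit of glutamate-cysteine ligase, the rate-limiting enzyme of glutathione synthesis, had counts of 2383, 2431, 2383, and 2600 in WT and 1790, 1718, 1792, and 1644 in *Hint1*-/- samples. The genotypes did not overlap (log2 fold change −0.49, SE 0.039, adjusted p = 4.09e-08). *Gclc*, the catalytic subunit of the same enzyme, fell less. Its counts were 1190, 1265, 1247, and 1338 in WT and 1077, 1121, 1108, and 1013 in *Hint1*-/- samples, again without overlap (log2 fold change −0.21, SE 0.043, adjusted p = 0.00143).

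*Slc7a11* encodes the transporter that imports cystine, the source of the cysteine in glutathione. Counts of 3115, 3711, 3424, and 3692 in WT and 2540, 2756, 2575, and 2771 in *Hint1*-/- samples did not overlap (log2 fold change −0.38, SE 0.048, adjusted p = 1.24e-05). *Gsr*, which reduces oxidized glutathione with NADPH, had counts of 1139, 1182, 1196, and 1216 against 973, 1064, 1130, and 1076. Its groups lay close together (log2 fold change −0.15, adjusted p = 0.0202), as did those of *Gss*, the second enzyme of synthesis (−0.13, adjusted p = 0.0208). The calls of *Gsr* and *Gss* were each lost without WT replicate 3 and without WT replicate 4, that of *Gsr* also without *Hint1*-/- replicate 1, and that of *Gss* also without *Hint1*-/- replicate 4.

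Neither regulator of the NRF2 pathway passed the test. *Nfe2l2* had counts of 4797, 4765, 4541, and 4791 in WT and 4887, 5168, 4774, and 4973 in *Hint1*-/- samples. These overlap, and the change of 0.08 on the log2 scale did not pass the test (adjusted p = 0.114). *Keap1* had counts of 1423, 1363, 1365, and 1374 against 1415, 1461, 1464, and 1496. On the CPM scale its groups were just separate, and its log2 fold change of 0.09 did not pass the test (adjusted p = 0.0732). RNA levels carry no measure of NRF2 protein, which is the level at which KEAP1 acts.

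Both targets placed with these regulators were lower. *Hmox1*, the enzyme that degrades heme, was the most abundant of the 4 genes per kilobase of exon. It had counts of 7520, 7482, 7742, and 8758 in WT and 6308, 6615, 5710, and 6015 in *Hint1*-/- samples (log2 fold change −0.34, SE 0.05, adjusted p = 6.03e-05). *Nqo1*, which reduces quinones, had counts of 489, 447, 607, and 722 in WT and 368, 366, 371, and 367 in *Hint1*-/- samples. The *Hint1*-/- samples were almost identical and the WT samples spread widely, with replicate 4 the highest. *Nqo1* fell by 0.61 on the log2 scale (SE 0.11, adjusted p = 0.000373). Its log2 fold change was −0.47 without WT replicate 4, −0.58 without WT replicate 3, and −0.58 after length and GC trends were removed, all under the fold limit.

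**Figure D2:**
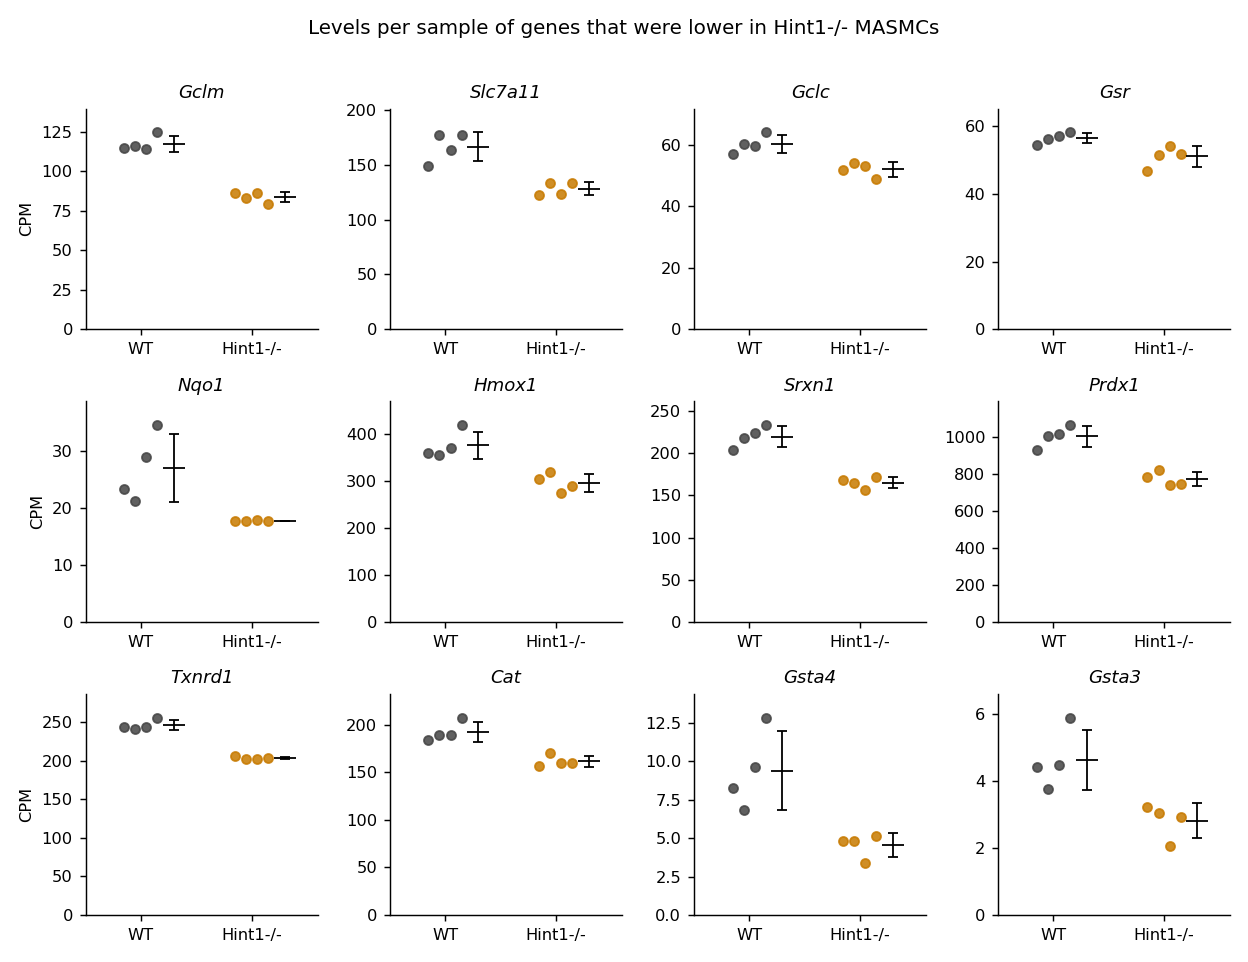
CPM of 12 genes that were lower in *Hint1*-/- MASMCs, with 1 point per sample in replicate order (grey WT, orange *Hint1*-/-) and the mean ± SD (n = 4) beside each group. No *Hint1*-/- point reaches the lowest WT point of its panel, and the WT points of *Nqo1*, *Gsta4*, and *Gsta3* spread the most.

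Of the 9 peroxiredoxin and thioredoxin genes, 6 were lower, 2 were higher, and *Prdx3* did not pass the test. The shares were 66.7% lower and 22.2% higher, against 10.2% and 11.2% of all genes tested. *Srxn1*, sulfiredoxin, which restores overoxidized peroxiredoxins, had counts of 4245, 4574, 4675, and 4872 in WT and 3481, 3408, 3243, and 3575 in *Hint1*-/- samples (log2 fold change −0.41, SE 0.041, adjusted p = 7.06e-07). *Prdx1*, a cytosolic substrate of it, was the most abundant gene of the group per kilobase, at 329 CPM per kilobase in WT and 253 in *Hint1*-/- samples. Counts of *Prdx1* were 19307, 21020, 21230, and 22165 in WT and 16159, 16930, 15374, and 15433 in *Hint1*-/- samples (log2 fold change −0.38, SE 0.042, adjusted p = 2.17e-06). These 2 genes were separate between the genotypes in every sample.

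*Txnrd1*, the cytosolic reductase that recharges thioredoxin from NADPH, had closely spaced replicates. Its counts were 5081, 5051, 5093, and 5326 in WT and 4261, 4183, 4199, and 4216 in *Hint1*-/- samples (log2 fold change −0.27, SE 0.031, adjusted p = 2.83e-06). *Txn1*, thioredoxin itself, was lower by less (−0.15, adjusted p = 0.00663), and so were the cytosolic peroxiredoxins *Prdx6* (−0.11, adjusted p = 0.0159) and *Prdx2* (−0.10, adjusted p = 0.0347). *Prdx3*, the mitochondrial peroxiredoxin, had a log2 fold change of −0.07 (adjusted p = 0.172). The higher genes were *Prdx5* (0.18, adjusted p = 0.00226), which is found in mitochondria, peroxisomes, and cytosol, and *Prdx4* (0.11, adjusted p = 0.0347), the peroxiredoxin of the endoplasmic reticulum. The call of *Prdx4* was lost under 8 of the alternatives and that of *Prdx2* under 6.

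No glutathione peroxidase was lower and 2 of the 5 tested were higher (40.0%, against 11.2% of all genes tested). *Gpx3*, the secreted form found in plasma, had counts of 1185, 1094, 1074, and 1132 in WT and 1551, 1612, 1578, and 1426 in *Hint1*-/- samples. The groups were well apart (log2 fold change 0.47, SE 0.044, adjusted p = 2.71e-07). *Gpx3* (chr11:54902453-54910377) lies 31.95 kb from *Hint1*, so the change of genotype and the DNA linked to the targeted gene cannot be told apart for it.

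*Gpx7*, a peroxidase of the endoplasmic reticulum, was higher as well, with counts of 711, 680, 701, and 646 in WT and 786, 781, 759, and 744 in *Hint1*-/- samples (log2 fold change 0.18, SE 0.044, adjusted p = 0.00728). *Gpx8*, of the same compartment, was the most abundant of the family per kilobase, and its counts of 2947, 2741, 2776, and 2812 overlapped with 3043, 2913, 2882, and 2808 (0.06, adjusted p = 0.283). *Gpx1*, the main cytosolic form, had counts of 1748, 1601, 1748, and 1726 against 1598, 1536, 1605, and 1559, and its log2 fold change of −0.10 just missed the test (adjusted p = 0.0534). *Gpx4*, which reduces lipid peroxides in membranes, had a log2 fold change of 0.03 (adjusted p = 0.755), and 34.7% of the 50-base stretches of its transcripts also occur in transcripts of other genes.

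Among the 4 superoxide dismutases and catalase, 1 gene rose and 1 fell (25.0% each, against 11.2% higher and 10.2% lower over all genes tested). *Sod2*, the mitochondrial dismutase, had counts of 6243, 6119, 6214, and 5808 in WT and 7258, 7328, 7340, and 7309 in *Hint1*-/- samples, a narrow group clear of WT (log2 fold change 0.27, SE 0.032, adjusted p = 4.02e-06). *Cat*, the peroxisomal catalase, had counts of 3836, 3975, 3957, and 4326 in WT and 3238, 3516, 3330, and 3318 in *Hint1*-/- samples (log2 fold change −0.25, SE 0.039, adjusted p = 0.00011). *Sod3*, the extracellular dismutase, was the most abundant of the 4 per kilobase. Its counts of 11414, 10032, 10258, and 10156 overlapped with 10893, 10889, 10802, and 10466 (0.05, adjusted p = 0.398). *Sod1*, the cytosolic dismutase, had counts of 2949, 2869, 3045, and 3220 against 2868, 2852, 2708, and 2708, and its log2 fold change of −0.11 did not pass the test (adjusted p = 0.0598).

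Of the 21 glutathione transferases tested, 5 were lower (23.8%, against 10.2% of all genes tested) and 3 were higher (14.3%, against 11.2%). The CPM summed over the family was 98.9% of WT. The alpha class held both transferases that passed the fold limit. *Gsta4*, which conjugates hydroxynonenal, an aldehyde from lipid peroxidation, had counts of 172, 143, 202, and 268 in WT and 100, 100, 71, and 107 in *Hint1*-/- samples. The groups did not overlap and WT replicate 4 was the highest (log2 fold change −1.04, SE 0.16, adjusted p = 0.000113). Without that replicate the log2 fold change was −0.85. *Gsta3*, an alpha class enzyme known for conjugating the aflatoxin epoxide in mice, had counts of 92, 79, 94, and 123 against 67, 63, 43, and 61 (log2 fold change −0.72, SE 0.16, adjusted p = 0.00254). Without WT replicate 4 it was −0.58, under the fold limit, with an adjusted p of 0.0102. *Gsta1* had counts of 0 to 41 and 90.5% of its 50-base stretches were shared with other genes, so its log2 fold change of −0.43 is uncertain.

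Of the 4 theta class genes, 2 were higher, where 11.2% of all genes tested were. *Gstt1* had counts of 1532, 1445, 1504, and 1415 in WT and 1842, 1806, 1875, and 1779 in *Hint1*-/- samples, without overlap (log2 fold change 0.32, SE 0.036, adjusted p = 2.78e-06), and *Gstt2* rose by 0.37 (adjusted p = 0.00729). *Gstt3* (0.10) and *Gstt4* (−0.08) did not pass the test. None of the 6 mu class genes tested changed by edgeR, DESeq2, or limma-voom, and 0 of the 6 had an unadjusted p under 0.05. Their log2 fold changes lay between −0.25 and 0.22, and that of *Gstm2*, the most abundant mu class gene per kilobase, was 0.00. *Gstp1*, of the pi class, was the most abundant transferase per kilobase, with counts of 4935, 4480, 5007, and 5003 in WT and 4724, 4681, 4576, and 4474 in *Hint1*-/- samples, which overlap (−0.06, adjusted p = 0.273). *Gstp1* and *Gstp2* share much of their sequence, and their counts may be divided between them.

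The microsomal transferases were mixed. *Mgst2*, which can also form a cysteinyl leukotriene, had counts of 178, 155, 192, and 219 in WT and 131, 126, 124, and 133 in *Hint1*-/- samples, again with WT replicate 4 highest (log2 fold change −0.52, SE 0.1, adjusted p = 0.000814). *Mgst3* was lower (−0.29, adjusted p = 0.0202) and *Mgst1* was higher (0.18, adjusted p = 0.0139), the latter with overlapping samples. *Gsto1*, an omega class enzyme that reduces dehydroascorbate, was lower (−0.15, adjusted p = 0.0137).

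Of the 17 aldehyde dehydrogenases tested, 3 were lower (17.6%, against 10.2% of all genes tested) and 2 were higher (11.8%, near the 11.2% of all genes tested). The CPM summed over the family was 944 to 974 in WT and 1035 to 1062 in *Hint1*-/- samples (109% of WT), and *Aldh1a2* alone rose from 356 to 459 CPM. *Aldh1a1*, *Aldh1a2*, and *Aldh1a3* encode enzymes that make retinoic acid from retinaldehyde. *Aldh1a2*, by far the most abundant at 157 CPM per kilobase in WT and 203 in *Hint1*-/- samples, had counts of 7770, 7392, 7283, and 7353 in WT and 9540, 9733, 9607, and 9246 in *Hint1*-/- samples. The *Hint1*-/- samples all lay well above WT (log2 fold change 0.37, SE 0.033, adjusted p = 1.61e-07).

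*Aldh1a3* went down. It had counts of 340, 379, 339, and 329 in WT and 215, 158, 174, and 163 in *Hint1*-/- samples, which is 51.6% of the WT level (log2 fold change −0.95, SE 0.085, adjusted p = 1.41e-07). It stayed between −0.90 and −1.06 with any 1 sample left out. *Aldh1a1* had a log2 fold change of −0.04 (adjusted p = 0.533). *Aldh1a7*, its close relative, had 4 to 14 counts in WT and 16 to 20 in *Hint1*-/- samples. Its log2 fold change of 0.79 did not pass the test (adjusted p = 0.0711). The *Aldh1a* level summed over the 4 genes was 122.9% of WT.

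*Aldh3a1*, which oxidizes aldehydes of lipid peroxidation and is a known target of the aryl hydrocarbon receptor, had counts of 19, 18, 12, and 17 in WT and 37, 38, 36, and 50 in *Hint1*-/- samples. It was rare in both genotypes and did not overlap between them (log2 fold change 1.29, SE 0.21, adjusted p = 0.000159). *Aldh3a1* lies 6.34 Mb from *Hint1* on chromosome 11, and the part of DNA linked to the targeted gene in its change was not tested. Beside *Aldh3a1*, at 6.35 Mb, lies *Aldh3a2*, the fatty aldehyde dehydrogenase. Its counts were 1603, 1512, 1533, and 1680 against 1607, 1653, 1581, and 1604 (0.04, adjusted p = 0.548). Both remaining calls were lower genes, *Aldh1l2*, a mitochondrial enzyme of folate metabolism (−0.20, adjusted p = 0.000984), and *Aldh16a1* (−0.22, adjusted p = 0.0194), whose samples overlapped. The other 12 aldehyde dehydrogenases did not pass the test.

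**Figure D3:**
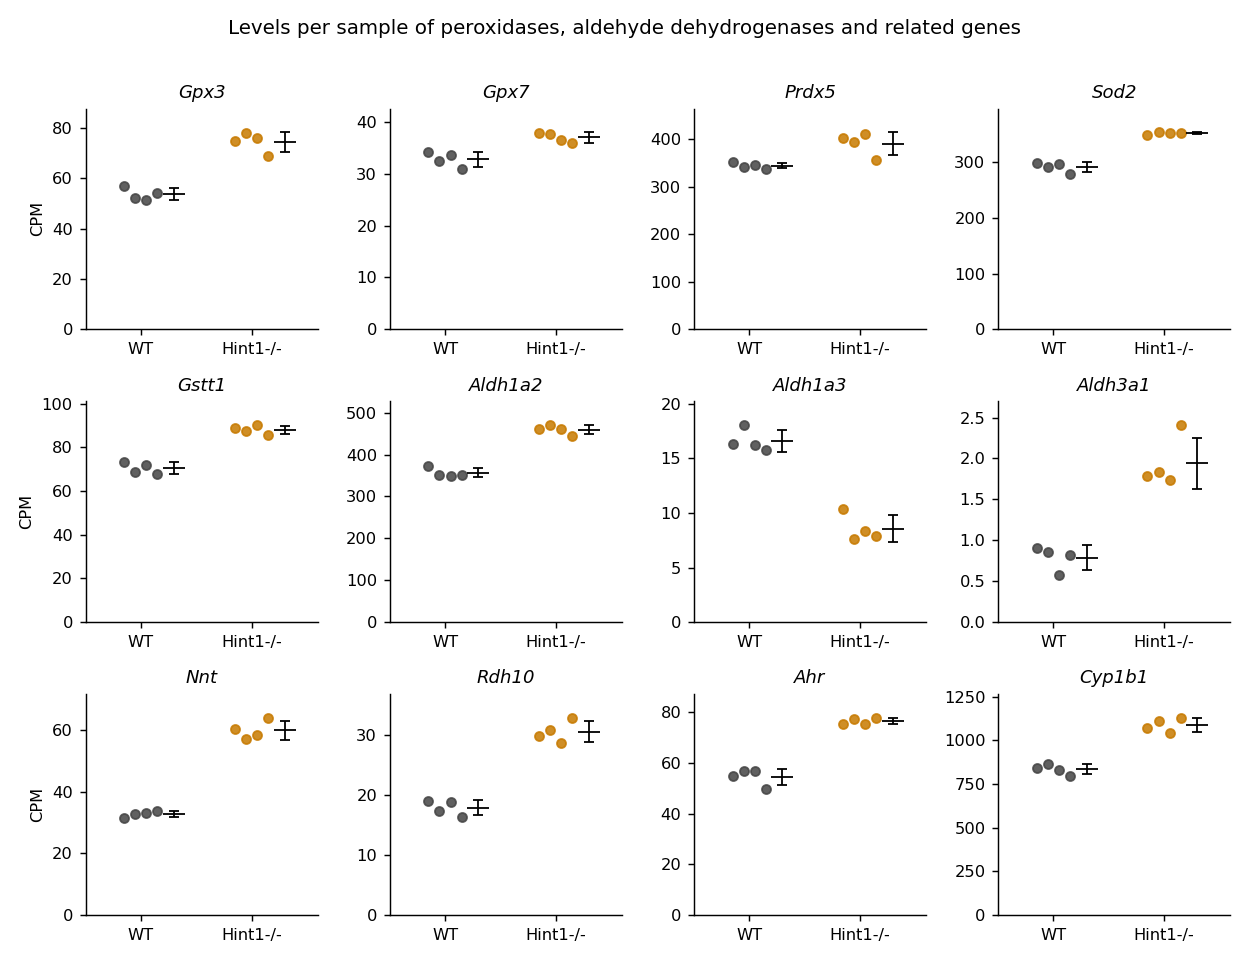
CPM per sample of 8 detoxification genes and of *Nnt*, *Rdh10*, *Ahr*, and *Cyp1b1* from the related lists, with points in replicate order (grey WT, orange *Hint1*-/-) and the mean ± SD (n = 4). *Aldh1a3* is the gene of the panels that is lower in *Hint1*-/- samples, and the other 11 genes are higher in every *Hint1*-/- sample.

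**Figure D4:**
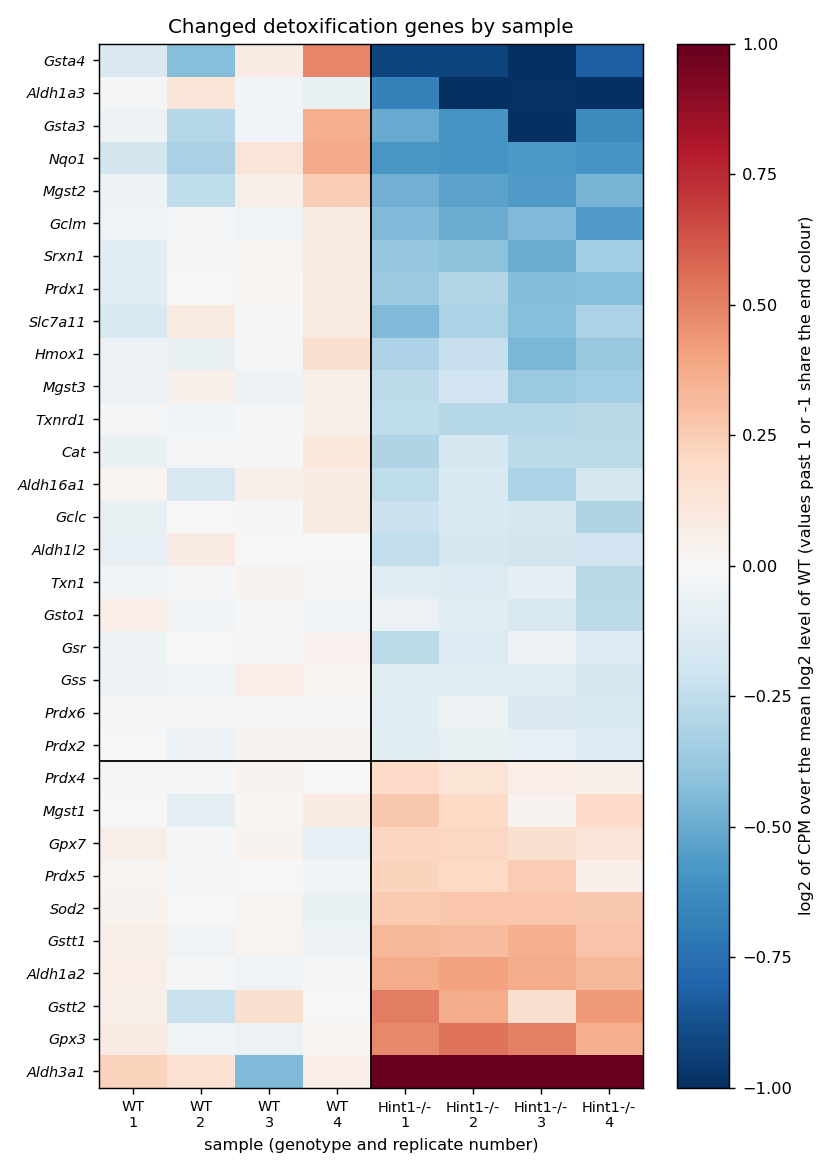
Log2 of the CPM of each sample over the mean log2 level of WT for the 32 changed genes, in order of fold change (22 lower above the line, 10 higher below it). The WT replicate 4 column is the reddest WT column for most of the lower genes, 17 of the 22, and the 4 *Hint1*-/- columns look alike.

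WT replicate 4 held the highest WT level of 17 of the 22 lower genes (77.3%). It did so for 33.8% of the 1385 lower genes over the whole table and for 26.8% of all genes tested. It also held the highest WT level of 5 of 8 macrophage markers, *Cd68*, *Csf1r*, *Adgre1*, *Cd14*, and *Lyz2*, and the summed level of the 8 was 2487, 2645, 2578, and 2853 CPM in WT replicates 1 to 4. *Lyz2* alone made up 1325 of the 2853 CPM in replicate 4. The markers *Ptprc*, *Itgam*, and *Fcgr1* were highest in WT replicate 2 instead. *Fcgr1* was lowest in replicate 4 (39.6, 46.5, 41.1, and 38.6 CPM in WT replicates 1 to 4). The part of macrophage RNA in the level of the lower detoxification genes in WT replicate 4 was not tested. Without WT replicate 4, 26 of the 32 calls were kept, *Aldh16a1*, *Gsr*, *Gss*, *Mgst3*, *Prdx2*, and *Prdx4* were lost, and *Gstp2* was gained.

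Genes of the same pathways outside the name pattern were taken from lists of 142 genes, of which 129 were tested and 51 changed (39.5%, against 21.5% of all genes tested). They were split into 28 lower (21.7%, against 10.2%) and 23 higher (17.8%, against 11.2%). Among 14 tested genes of glutathione handling, 4 were lower and 2 higher (42.9% changed). *Slc3a2*, the partner chain of the *Slc7a11* transporter, had a log2 fold change of −0.19 (adjusted p = 0.000542). *Abcc4*, a pump that can export glutathione (−0.27, adjusted p = 0.00034), and *Esd*, which hydrolyzes a glutathione thioester (−0.17, adjusted p = 0.000931), were lower too. Among 21 partners and further targets of NRF2, 9 changed (42.9%). Of these, 6 were lower, among them *Sqstm1* (−0.24), which binds KEAP1, *Blvra* (−0.30), biliverdin reductase, and *Ftl1* (−0.24), the ferritin light chain, and 3 were higher, *Maff* (0.26), *Ugdh* (0.12), and *Nfe2l1* (0.11). *Sqstm1* lies 4.66 Mb from *Hint1* on chromosome 11, and *Trim16* (−0.13), also lower, lies 7.95 Mb from it. The part of DNA linked to the targeted gene in these changes was not tested. Among 17 thioredoxin and glutaredoxin partners, 3 changed (17.6%, below the share of all genes tested). *Txn2*, the mitochondrial thioredoxin, was lower (−0.17, adjusted p = 0.0021), and *Txnip* (0.13) and *Glrx* (0.12) were higher with overlapping samples.

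NADPH supply was divided, with 4 genes lower and 4 higher of 13 tested (61.5% changed, against 21.5% of all genes tested). The lower genes were all of the pentose phosphate pathway, *G6pdx* (−0.19, adjusted p = 0.00115), *Taldo1* (−0.19), *Pgd* (−0.14), and *Pgls* (−0.12, with overlapping samples). *Tkt*, of the same pathway, did not pass the test (0.08, adjusted p = 0.105). The higher genes were the malic enzymes *Me1* (0.12) and *Me2* (0.14), the isocitrate dehydrogenase *Idh1* (0.15), and *Nnt*. *Nnt* encodes the transhydrogenase that makes NADPH in mitochondria and is partly deleted in the C57BL/6J strain. It had counts of 657, 690, 694, and 702 in WT and 1250, 1183, 1214, and 1329 in *Hint1*-/- samples (log2 fold change 0.87, SE 0.043, adjusted p = 3.48e-11). Strain background and *Hint1* genotype cannot be told apart for this gene.

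In the retinoid pathway, 4 of 14 tested genes were higher (28.6%, against 11.2% of all genes tested) and 3 were lower (21.4%, against 10.2%). Thus 7 of the 14 changed, where 21.5% of all genes tested did. *Rdh10*, which makes the retinaldehyde that *Aldh1a2* uses, had counts of 397, 365, 394, and 342 in WT and 619, 638, 597, and 683 in *Hint1*-/- samples (log2 fold change 0.77, SE 0.06, adjusted p = 2.62e-08). *Rdh11* was higher by 0.42 (adjusted p = 4.25e-06). *Rbp4*, the retinol carrier, was rare, with counts of 10, 20, 25, and 16 against 40, 32, 34, and 28 (0.92, SE 0.24, adjusted p = 0.00889). *Dhrs3* (−0.19) and *Dhrs9* (−0.33), short-chain dehydrogenases of retinoids, and the binding protein *Crabp1* (−0.55) were lower.

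The other aldehyde, alcohol, and aryl hydrocarbon genes held 5 higher and 4 lower of 20 tested, so that 9 changed. The shares of all genes tested were 11.2% higher, 10.2% lower, and 21.5% changed. *Ahr*, the aryl hydrocarbon receptor, had counts of 1139, 1188, 1188, and 1038 in WT and 1566, 1599, 1563, and 1614 in *Hint1*-/- samples (log2 fold change 0.49, SE 0.041, adjusted p = 7.79e-08). *Cyp1b1*, a target of that receptor, was higher too, with counts of 17537, 18176, 17395, and 16626 against 22156, 23047, 21734, and 23446 (0.39, SE 0.035, adjusted p = 2.22e-07). *Tiparp*, another target, was higher by 0.16, and *Xdh*, xanthine dehydrogenase, by 0.22. Of the other aryl hydrocarbon genes listed, *Ahrr* did not pass the test (0.26, adjusted p = 0.375). *Cyp1a1*, at 0 to 4 counts, was not tested. *Akr1b3* (−0.38), *Akr1a1* (−0.16), and *Akr1b8* (−0.13), aldo-keto reductases, and *Adh7* (−0.45) were lower. *Aldh2*, the main mitochondrial aldehyde dehydrogenase, had counts of 4493 to 4661 in WT and 4287 to 4472 in *Hint1*-/- samples and did not pass the test (−0.06, adjusted p = 0.207). Selenoproteins and their synthesis had 3 higher and 2 lower of 20 tested (25.0% changed, near the 21.5% of all genes tested), with log2 fold changes of the changed genes from −0.20 to 0.18.

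Among sources of superoxide and peroxide, 4 of 10 tested genes were lower (40.0%, against 10.2% of all genes tested). Among them, *Rac2*, a small GTPase of blood cells that takes part in the phagocyte NADPH oxidase, had a log2 fold change of −0.36 (adjusted p = 2.77e-06). *Ncf1* (−0.34, adjusted p = 2.72e-05) and *Ncf4* (−0.32, adjusted p = 0.000407) encode cytosolic subunits of that oxidase. Its membrane subunits *Cybb* (−0.08, adjusted p = 0.474) and *Cyba* (−0.08, adjusted p = 0.123) did not pass the test. *Nox4*, the oxidase best known in smooth muscle, had 190 to 209 counts in WT and 170 to 214 in *Hint1*-/- samples, and its log2 fold change was −0.10 (adjusted p = 0.448).

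**Figure D5:**
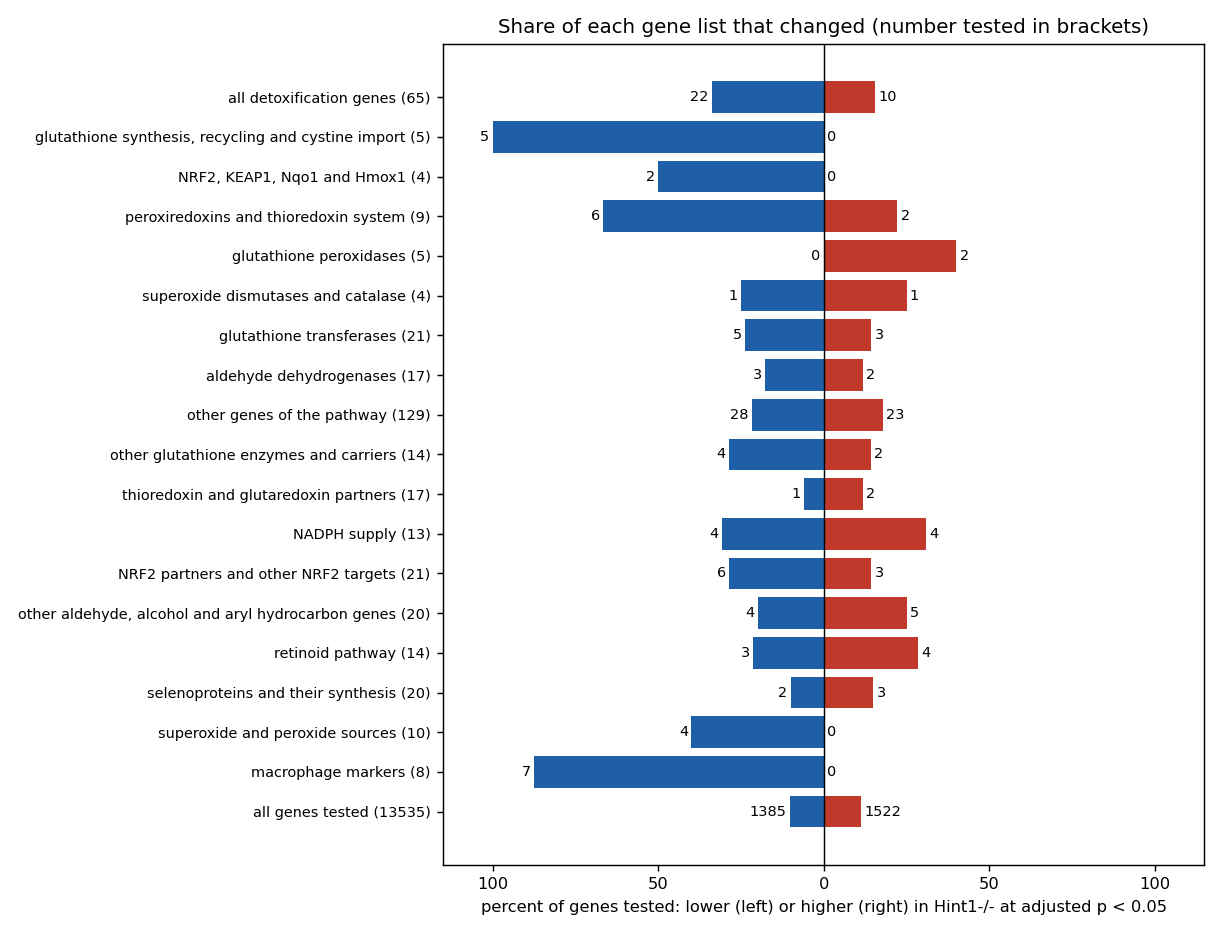
Percent of the tested genes of each list that were lower (blue, left) or higher (red, right) in *Hint1*-/- MASMCs, with the number of genes at the end of each bar and the number tested in brackets. Over all 13535 genes tested, 1385 were lower and 1522 higher, and the lists of glutathione synthesis and of peroxiredoxins show larger lower shares than that.

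Markers of other cell types moved between the genotypes, and their part in the results above was not tested. In bulk RNA, fewer cells of a type and less RNA per cell cannot be told apart. Of all genes tested, 10.2% were lower and 11.2% higher, the shares to set beside the marker counts that follow. The smooth muscle markers *Acta2* (11640 to 17855 counts) and *Tagln* (7129 to 8644) were abundant in every sample, and 6 of 8 such markers were lower and 1 higher. The 6 lower ones, *Acta2* (−0.51) among them, had log2 fold changes from −0.31 (*Lmod1*) to −1.54 (*Myh11*). The higher one was *Smtn* (0.25), and *Tagln* did not pass the test. The summed level of the 8 was 1360 to 1477 CPM in WT and 1123 to 1213 in *Hint1*-/- samples (81.1% of WT). Macrophage markers were also abundant in these cultures (*Lyz2*, 19497 to 27662 counts), 7 of 8 were lower, and their summed level was 2487 to 2853 CPM in WT and 2049 to 2193 in *Hint1*-/- samples (80.7% of WT). The 7 lower macrophage markers had log2 fold changes from −0.25 to −0.44. Of the 22 lower detoxification genes, 6 (*Gsta4*, *Aldh1a3*, *Gsta3*, *Nqo1*, *Mgst2*, and *Gclm*) lay below that range and 9 lay above it. Schwann cell markers fell further, 6 of 8 lower and a summed level at 41.0% of WT, from 65.7 to 71.5 CPM in WT. Fibroblast markers were 5 higher and 2 lower of 8 (112.3% of WT). Endothelial markers summed to 5.58 to 8.13 CPM in WT and 5.24 to 7.68 in *Hint1*-/- samples, and none of the 5 tested was called by edgeR, DESeq2, or limma-voom, with 1 at an unadjusted p under 0.05. Of 3 adipocyte markers tested none was called by these tools, with 1 at an unadjusted p under 0.05, and 1 of 2 mesothelial markers (*Krt19*) was higher.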

How the data were processed

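RNA-Seq of 4 WT and 4 *Hint1*-/- MASMC samples was used, grouped by the genotype in the labels. Per the study's methods, reads of 50 bases were mapped to mm10 with HISAT2. The submitters' processing notes name Bowtie2, RSEM 1.3.1, DESeq2 1.4.5, and mm10 without roles. The authors made and deposited estimated counts per gene symbol, without normalization, of which 67.3% to 67.8% were exactly whole in each sample with values of 0 included, and 63.1% to 63.8% of the values above 0. Rounding to whole numbers preceded the tests. Genes were filtered with filterByExpr, normalized by TMM (factors 0.993 to 1.01), and tested with glmQLFit and glmQLFTest of edgeR 4.0.16 (R 4.3.3) with genotype as the only term. The standard error is the size of the log2 fold change divided by the square root of F. DESeq2 1.42.0 and limma 3.58.1 (voom) were alternatives, with other size factors, other filters, the replicate number as a block, loess removal of length and GC trends, and each sample left out. CPM per kilobase used the exon length of GENCODE M21, matched by symbol for 17733 of 18533 symbols. Shared sequence was measured as the share of a gene's 50-base stretches found in transcripts of other genes.

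Pairs of libraries had a chi-square per gene of 2.09 to 5.50 within a genotype and of at least 11.9 between genotypes, so no library was a copy of another. The common biological coefficient of variation was 3.79%. The study describes no molecular identifiers, so counts are not independent molecules.

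Genes shown sample by sample were those past the fold limit and the detoxification genes within 10 Mb of *Hint1*. In each role group, the 3 with the smallest p and the 1 with the highest level per kilobase were shown too. *Nfe2l2*, *Aldh1a7*, and the marker genes were added, as were *Prdx5* in a figure and *Ahr* and *Cyp1b1* from the related lists. Of the related lists, genes past the fold limit and the 3 changed genes with the smallest p in each list were named, and others after their values were seen. The genes, the lists, and the tests were chosen with earlier results of these data known. The result for 1 gene of the related lists is not reported here.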

Additional observations from a re-analysis of the deposited data

Results flagged for a closer look

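The highest or lowest of the 4 samples of a genotype stood apart from the other 3 in 6 of the 130 groups of 4 samples examined (65 genes in each genotype), where its gap to the nearest sample took more of the whole range on the log2 CPM scale than Dixon's critical value. About 1 in 20 groups, or 6.5 here, would be marked by chance. *Gstp1* in WT had a gap of 0.891 of the range, with 4480 counts in replicate 2 against 4935 to 5007 in the others. *Gsta1* in *Hint1*-/- samples had a gap of 0.867, with 0 counts in replicate 2 against 14 to 20, and most of its sequence is shared with other genes. *Gpx1* in WT had a gap of 0.854, with 1601 counts in replicate 2 against 1726 to 1748, and the gene passed the test without that replicate. *Gsta4* in *Hint1*-/- samples had a gap of 0.839, with 71 counts in replicate 3 against 100 to 107, and its log2 fold change was −0.93 without that replicate. *Aldh1l1* in WT had a gap of 0.836, with 745 counts in replicate 1 against 791 to 796. *Gss* in *Hint1*-/- samples had a gap of 0.836, with 927 counts in replicate 4 against 954 to 965, and its call was lost without that replicate.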

How the results depend on the processing

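The number of changed detoxification genes stayed within 1.5 times the 32 reported under each of the 17 alternatives, from 27 (without WT replicate 3, WT replicate 4, or *Hint1*-/- replicate 4) to 36 (without WT replicate 2, or with length and GC trends removed), and 4 to 7 genes passed the fold limit. No changed detoxification gene reversed its direction. DESeq2 kept 28 of the 32 calls and lost *Aldh16a1*, *Gss*, *Mgst3*, and *Prdx4*. Leaving out 1 sample kept 26 to 31. Besides those 4, *Prdx2*, *Gsr*, *Gsto1*, *Mgst1*, and *Prdx6* lost their call at least once, each with a log2 fold change under 0.30 in size. The samples whose removal ended a call were *Hint1*-/- replicates 3 and 4 for *Mgst3* (beside WT replicate 4), WT replicate 3 and *Hint1*-/- replicate 3 for *Aldh16a1* (beside WT replicate 4), WT replicate 1 and *Hint1*-/- replicate 4 for *Gsto1*, *Hint1*-/- replicate 1 for *Mgst1*, and *Hint1*-/- replicate 4 for *Prdx6*. *Gpx1*, *Sod1*, *Aldh3b1*, *Keap1*, *Gstm5*, *Aldh1l1*, *Aldh1a7*, *Gstp1*, and *Gstp2* passed the test under at least 1 alternative, and the causes were not tested. Of the related genes, *Glrx* and *Txnip* lost their call under some alternatives. The replicate numbers did not pair the samples (correlations of same-numbered deviations −0.04 to 0.08, and 2 of 4 WT samples correlated best with their own number). With the replicate number as a block, 33 detoxification genes changed, the 32 reported and *Gpx1*, and 51 related genes changed. Among rare genes, *Aldh1a7* (log2 fold change 0.79, SE 0.30) and *Gstp2* (−0.67, SE 0.25) had wide errors, and their side of the threshold depended on the setting.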
